A study of Mus musculus with 10 samples.

Results

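The 5 genes described here were Ihh, Pthlh, Pth1r, Col10a1 and Panx3, taken by symbol from the 31053 genes of the droplet matrices and the 55453 genes of the plate tables. Each was found in both lists. They were followed across chondrocyte-like, mineralising-like and tendon fibroblast-like cells of the mouse supraspinatus enthesis, the attachment of a shoulder tendon to bone, and across postnatal ages. Single cells were sequenced in 10 libraries. For 3 of them, cells of pooled whole entheses from wild-type C57BL/6 mice (C57BL/6J in the protocol), aged 11, 18 or 56 days after birth (written P11, P18, P56), were captured in droplets after red cell lysis and a sort for cells without Cd45 and without the dead-cell dye DAPI. The other 7 were plates of 96 wells, with pooled cells of Gli1CreERT;Ai14 mice at 7 ages (P7, then P11, P14 and P18, then P21, P28 and P42), all given tamoxifen at P5 and P7. In these mice an inducible Cre under control of Gli1 switches on a red fluorescent reporter, so the marked cells are those that expressed Gli1 around the time of the doses, and their descendants. Gli1 is itself a Hedgehog target gene, and the youngest plate was taken at the age of the second dose. The labels do not make clear whether red cells were kept in the plate sort. Each age was 1 library in each assay, so no value for an age has a replicate.

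Ihh encodes Indian hedgehog, a secreted ligand made by prehypertrophic chondrocytes. In growth plates it acts on neighbouring cells through the receptor patched (Ptch1), raises the transcription factor Gli1, and leads to expression of Pthlh, which encodes the parathyroid hormone-related protein PTHrP. PTHrP signals through its receptor, encoded by Pth1r, and the cyclic AMP cascade to hold chondrocytes back from hypertrophy, which closes a negative feedback loop. Col10a1 encodes the collagen X chain that marks hypertrophic chondrocytes, and Panx3 encodes pannexin 3, a channel protein found in prehypertrophic chondrocytes and osteoblasts. The enthesis holds a small fibrocartilage that mineralises after birth and that depends on Hedgehog-responsive cells.

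All 5 are protein-coding genes of the GENCODE vM21 annotation on GRCm38, the assembly also called mm10. Ihh lies on chromosome 1 from 74945315 to 74951672, Pthlh on chromosome 6 from 147252101 to 147264183, and Pth1r on chromosome 9 from 110722085 to 110747145, all on the minus strand. Panx3 also lies on chromosome 9, from 37659902 to 37669235 on the minus strand. Col10a1 lies on chromosome 10 from 34389981 to 34397085 on the plus strand. RefSeq promoter entries on GRCm38.p6 matched 4 of the 5 genes, and Panx3 is named only. The 250 bases before the transcription start are shown for both ligands of the loop and for the hypertrophy gene that was found in the same cells as Ihh. Capitals mark the only match to any of 4 motifs searched on both strands, the core TGACG of the cyclic AMP response element, here read as its reverse complement. The Ihh stretch is chr1:74951673-74951922 on the minus strand, the Pthlh stretch chr6:147264014-147264263 on the minus strand, and the Col10a1 stretch chr10:34389731-34389980 on the plus strand.
Ihh: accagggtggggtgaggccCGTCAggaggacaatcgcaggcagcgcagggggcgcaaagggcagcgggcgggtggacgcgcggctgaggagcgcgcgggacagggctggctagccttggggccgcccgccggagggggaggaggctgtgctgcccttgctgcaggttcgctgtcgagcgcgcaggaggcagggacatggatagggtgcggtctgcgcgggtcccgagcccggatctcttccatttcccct
Pthlh: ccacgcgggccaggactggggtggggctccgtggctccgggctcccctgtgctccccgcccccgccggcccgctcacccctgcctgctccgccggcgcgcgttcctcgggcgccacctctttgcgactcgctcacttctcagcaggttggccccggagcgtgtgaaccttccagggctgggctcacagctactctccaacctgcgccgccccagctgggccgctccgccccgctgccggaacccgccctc
Col10a1: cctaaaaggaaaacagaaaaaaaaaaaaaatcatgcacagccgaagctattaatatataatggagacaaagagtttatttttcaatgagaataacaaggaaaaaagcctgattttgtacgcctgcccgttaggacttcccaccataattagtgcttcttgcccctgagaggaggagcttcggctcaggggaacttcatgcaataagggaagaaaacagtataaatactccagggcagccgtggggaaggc

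The Ihh stretch was 72% G and C and held the TGACG match 231 bases before the start. The Pthlh stretch was 75.2% G and C, and the Col10a1 stretch 41.6%. Neither held a match to TGACG, to the RUNX motif TGTGGT, to the GLI core GGGTGGT or to the SOX motif ACAATG. Of 3 start sites listed for Pth1r, the most upstream had a TGACG match 161 bases before the start. Among 32851 mouse promoter stretches in the same table, 17.8% held TGACG, 14.0% the RUNX motif, 3.92% the GLI core and 10.7% the SOX motif. These matches describe letters in a window and are not binding sites.

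After filters and doublet removal, 2882, 5163 and 4920 droplet cells remained at P11, P18 and P56, from libraries of 44104990, 53725468 and 40082499 counts. Clustering, from which the 5 genes were left out, gave 38 clusters that were named from marker genes. Immune-like cells made up 499 cells at P11 and 3690 at P18 in spite of the sort against Cd45. Pairs of libraries shared 2 to 8 cell barcodes. Chondrocyte-like cells formed 2 clusters, 264 cells at P11 and 617 at P18, and there was none at P56. One is called Matn1-high here (165 and 430 cells, led by Matn1, Epyc and Matn3), the other Matn1-low (99 and 187 cells, with Msmp, Gdf6 and Smoc1 among its leading genes), a split made after the clusters were seen. Matn1 encodes matrilin 1, a cartilage matrix protein. The Matn1-high cluster expressed all 11 chondrocyte markers measured, with a summed level of 113568 CPM (counts-per-million) at P11 and 76884 CPM at P18. The Matn1-low cluster had 58517 and 42507 CPM of the same markers. Mineralising-like cells were 1 cluster, 115 cells at P11, 372 at P18 and 4 at P56, led by genes such as Ibsp, Alpl and Spp1. They also carried cartilage markers at 74146 and 45727 CPM, against 3010, 1134 and 493 CPM in tendon fibroblast-like cells at the 3 ages. The chondrocyte-like and mineralising-like cells together are called the chondrocyte lineage below. Median counts per cell at P11 and P18 were 17532 and 13982.5 in Matn1-high, 10548 and 9341 in Matn1-low, 13067 and 9103.5 in mineralising-like and 10522 and 5443 in immune-like cells. Levels are CPM of counts summed over the cells of a class in a library, and are given with their exact Poisson 95% interval. Shares of cells come with an exact binomial 95% interval, and both kinds cover counting error only.

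**Figure D1:**
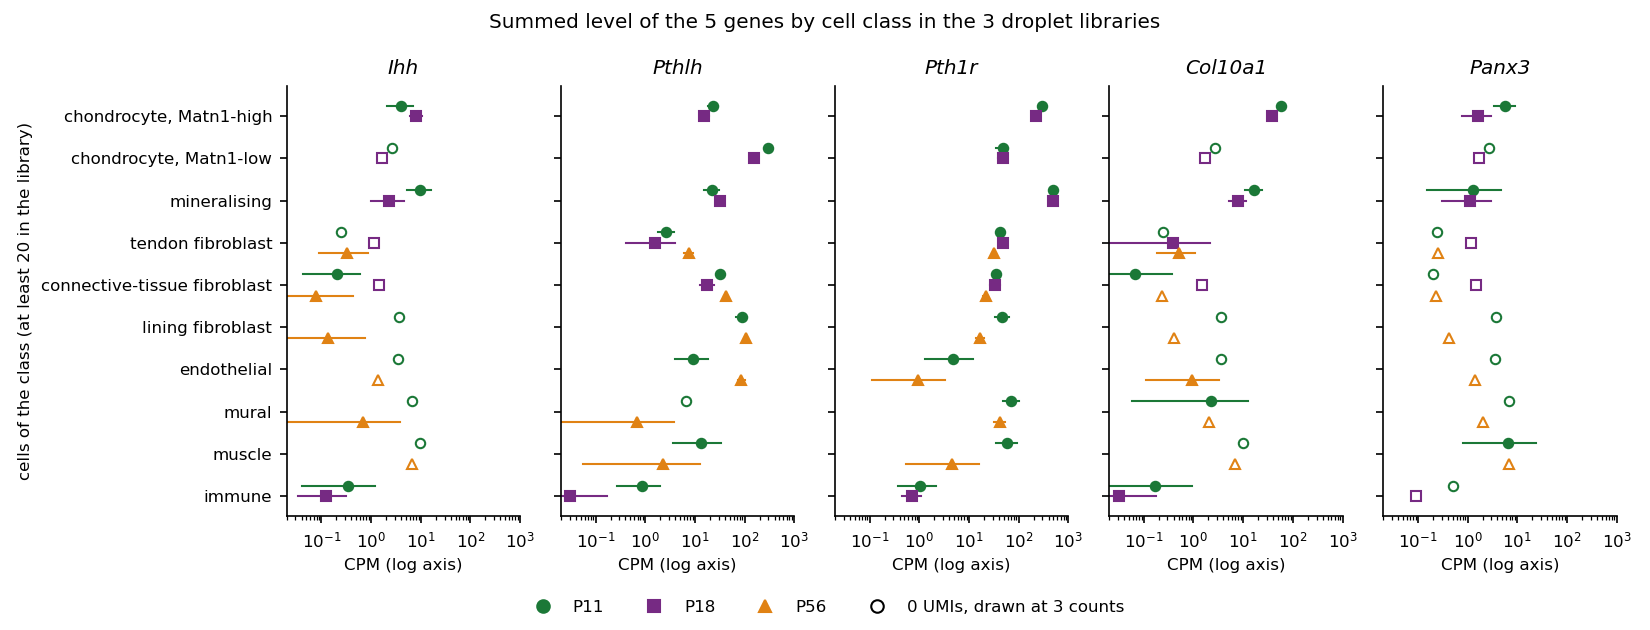
Summed level (CPM, log axis) of each gene by cell class in the P11, P18 and P56 droplet libraries, with exact Poisson 95% intervals. Open symbols stand for 0 UMIs and are drawn at 3 counts. Pthlh is highest in Matn1-low chondrocyte-like cells, at 289 and 157 CPM, where Ihh, Col10a1 and Panx3 had no count.

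Ihh, the Hedgehog ligand, was rare and was found in Matn1-high and mineralising-like cells. Over all cells there were 32 Ihh molecules (UMIs, unique molecular identifiers) in 19 cells at P11, 62 in 32 cells at P18 and 7 in 5 cells at P56. The chondrocyte lineage held 84.4% of them at P11 and 93.5% at P18. In Matn1-high cells the level was 4.05 CPM (2.10 to 7.08) at P11 and 8.18 CPM (6.07 to 10.8) at P18, from 12 and 50 UMIs, and 1 P18 cell alone held 16 of them. In mineralising-like cells it was 9.56 CPM (5.35 to 15.8) at P11 and 2.28 CPM (0.984 to 4.49) at P18. These orders differ between the libraries: the mineralising-like cells had the higher level at P11 and the Matn1-high cells at P18, with intervals apart at P18 and overlapping at P11. Among Matn1-low cells 0 of 99 and 0 of 187 had an Ihh UMI, for which a limit of 3 counts stands at 2.68 and 1.69 CPM. Tendon fibroblast-like cells had 0 UMIs in 767 cells at P11 and in 239 at P18, and 4 UMIs in 2 of 1984 cells at P56. The share of cells with an Ihh UMI was 4.24% and 4.88% in Matn1-high cells, against 0.401% and 0.108% in immune-like cells, a background class. The other Hedgehog ligands were nearly absent from these cells. Shh had 0 UMIs in Matn1-high, Matn1-low, mineralising-like and tendon fibroblast-like cells at P11 and P18, and Dhh had 1 UMI in Matn1-high cells at P18 and 1 in tendon fibroblast-like cells at P11.

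Pthlh, which encodes PTHrP, marked a different cartilage cluster. Its level in Matn1-low cells was 289 CPM (258 to 322) at P11 and 157 CPM (139 to 176) at P18, and 65.7% and 48.7% of these cells had a UMI. In Matn1-high cells it was 23.3 CPM (18.1 to 29.5) and 15.4 CPM (12.4 to 18.8), in 17.6% and 7.91% of cells. Mineralising-like cells had 21.7 CPM (15.01 to 30.3) and 31.6 CPM (26.0 to 38.1), and the tendon fibroblast-like cells 2.63, 1.54 and 7.42 CPM from P11 to P56. The Matn1-low cells were thus highest in both libraries, with intervals apart from every other class of the lineage. Matn1-high cells were lower than Matn1-low cells by a log2 ratio of -3.63 at P11 (-4.03 to -3.25) and -3.35 at P18 (-3.70 to -3.01). With every cell thinned to 2000 UMIs, 32.7% and 20.3% of Matn1-low cells kept a Pthlh UMI, against 5.59% and 2.37% of Matn1-high cells.

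Pthlh was also found outside cartilage. The chondrocyte lineage held 41.9% of its 1019 UMIs at P11, 91.0% of 531 at P18 and none of 1590 at P56. Lining fibroblast-like cells, named from joint-lining markers such as Cd55 and Tspan15, had 87.5 CPM (68.5 to 110) at P11 in 39 cells and 108 CPM (100 to 115) at P56 in 525 cells. Their 7 cells at P18 had 87.4 CPM (35.1 to 180.1). Most of the P56 cells (444) were 1 cluster in which Dsp, Edn2 and Aqp5 were among the leading genes, which are not joint-lining markers. That cluster passed 3 lining markers (Cd55, Crabp2 and Tspan15) but not Prg4 or Hbegf. It also passed 5 connective-tissue fibroblast markers. Connective-tissue fibroblast-like cells had 31.7, 17.7 and 41.5 CPM. Endothelial-like cells had 9.35 CPM at P11 and 86.3 CPM (74.3 to 99.5) at P56, where 48 of 434 cells held 187 UMIs. In immune-like cells the level was 0.842 CPM at P11 and 0.0310 CPM at P18. Fewer cells of a class and less RNA per cell cannot be told apart in the library totals, since the makeup of the libraries differed between ages.

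Pth1r, the receptor for PTHrP, was highest in the mineralising-like cells and next in Matn1-high cells, among classes of at least 20 cells. Mineralising-like cells had 482 CPM (448 to 517) at P11 and 486 CPM (463 to 510) at P18, with a UMI in 87.8% and 78.8% of cells. The 4 such cells at P56 had 151 CPM (72.6 to 278). Matn1-high cells had 293 CPM (274 to 313) and 224 CPM (213 to 236), with a UMI in 78.8% and 67.2% of cells. The Pthlh-rich Matn1-low cells had 47.3 CPM in each library (35.4 to 61.8 and 37.7 to 58.6), a level that overlapped that of tendon fibroblast-like cells, at 42.5 CPM (38.9 to 46.3) and 47.7 CPM (39.7 to 56.9). Tendon fibroblast-like cells had 32.3 CPM (29.1 to 35.7) at P56. The order of mineralising-like, Matn1-high and then Matn1-low and tendon fibroblast-like cells held in both libraries, and the last pair was not apart beyond counting error. Matn1-high exceeded Matn1-low cells by a log2 ratio of 2.63 (2.23 to 3.06) at P11 and 2.24 (1.93 to 2.58) at P18, the opposite direction to Pthlh. After thinning to 2000 UMIs, Pth1r was found in 48.7% and 48.8% of mineralising-like, 31.7% and 25.6% of Matn1-high, 8.16% and 15.5% of Matn1-low and 7.37% and 9.28% of tendon fibroblast-like cells. Immune-like cells had 1.01 and 0.714 CPM, with a UMI in 1.00% and 0.623% of cells. Mural-like cells had 69.8 CPM (47.4 to 99.0) at P11, above the tendon interval, and 41.9 CPM (32.0 to 53.8) at P56, where the intervals overlapped. The 4 muscle-like cells at P18 held 28 UMIs, 734 CPM.

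**Figure D2:**
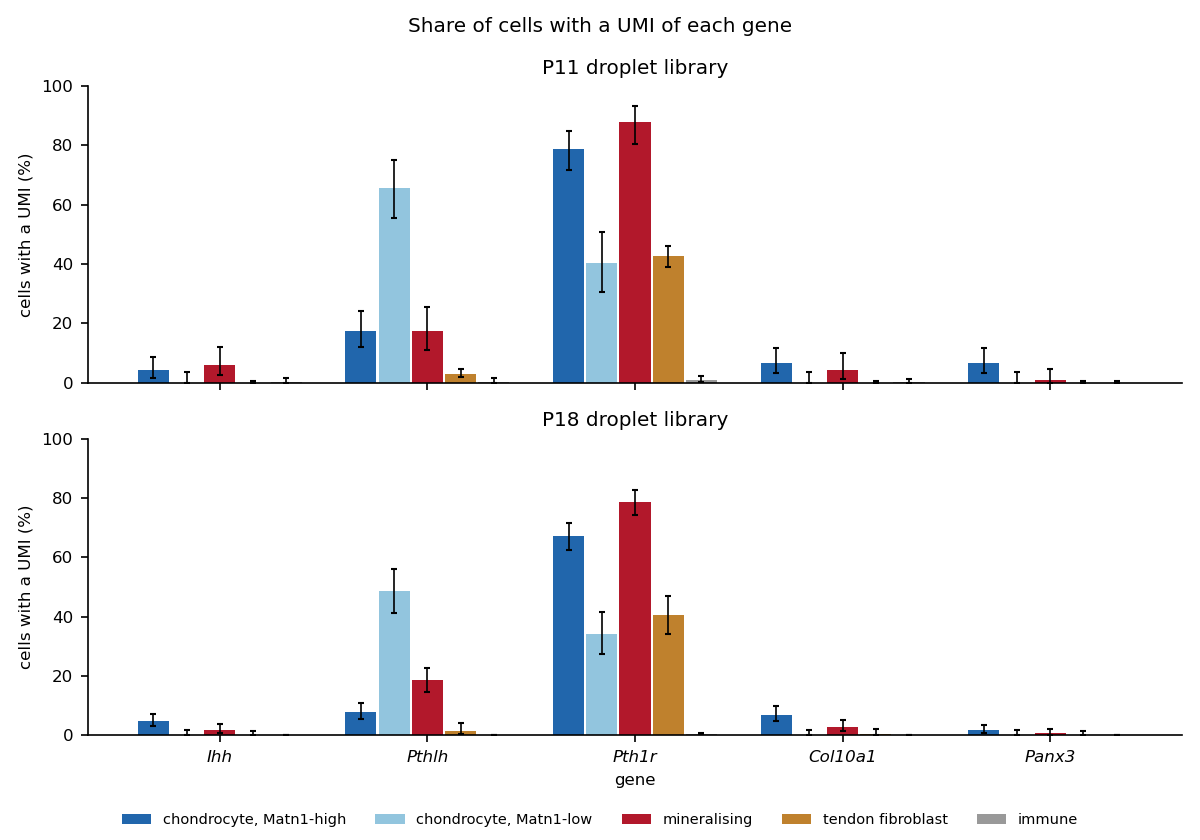
Share of cells with a UMI of each gene (percent) in the P11 and P18 droplet libraries, by cell class, with exact binomial 95% intervals. Pthlh reached 65.7% and 48.7% in Matn1-low cells, and Pth1r 87.8% and 78.8% in mineralising-like cells. The shares are not thinned to a common depth.

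Col10a1, the collagen of hypertrophic cartilage, came from few cells that each held many molecules. Matn1-high cells had 58.5 CPM (50.1 to 67.8) at P11, from 173 UMIs in 11 of 165 cells, and 38.8 CPM (34.0 to 44.0) at P18, from 237 UMIs in 30 of 430 cells. The highest single cells held 65 and 61 UMIs. Over all cells of a library, the 10 cells with the most Col10a1 held 95.05% of its 202 UMIs at P11 and 76.8% of 267 at P18, so the intervals, which treat molecules as independent, are too narrow here. Mineralising-like cells had less in both libraries, at 16.6 CPM (10.8 to 24.3) in 5 cells and 7.98 CPM (5.30 to 11.5) in 11 cells. Matn1-low cells had 0 UMIs in both libraries. In the tendon class there were 0 UMIs at P11, 1 at P18 and 6 at P56. The lineage held 98.5% and 99.3% of the UMIs at P11 and P18. At P56, 13 of 21 UMIs were in 1 of the 4 mineralising-like cells.

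Panx3, the channel gene, was found in few cells, with 21 UMIs at P11, 16 at P18 and 0 in 4920 cells at P56. Matn1-high cells had 5.74 CPM (3.35 to 9.20) at P11, in 11 of 165 cells, and 1.64 CPM (0.784 to 3.01) at P18, in 8 of 430 cells, so their intervals did not overlap. Mineralising-like cells had 2 and 4 UMIs, and Matn1-low, tendon fibroblast-like and immune-like cells had 0 in every library. The only other UMIs in a named class were 2 in muscle-like cells at P11 and 2 at P18. These were 6.53 CPM (0.791 to 23.6) in 2 of 27 cells and 52.4 CPM (6.35 to 189) in 1 of 4 cells. The level in muscle-like cells was thus not below that of Matn1-high cells, though it rests on very few cells.

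Counted against the tendon fibroblast-like cells of P11 and P18 together, all 5 genes were at least 4-fold higher in the chondrocyte-like cells, where 9.15% of 12627 genes were (6.93% were as much lower). Ihh, Panx3 and Col10a1, with 0, 0 and 1 tendon UMIs, passed the minimum of 20 UMIs only through the chondrocyte-like cells, so their part of that count was fixed by the filter. The log2 ratio was 4.71 for Pthlh (4.23 to 5.24) and 2.19 for Pth1r (2.07 to 2.32). With means of the cells' CPM, Pth1r fell to 1.92, under 4-fold, which leaves 4 of 5. The ratio was 8.98 for Col10a1 (6.50 to 14.3), and Ihh and Panx3 were higher by at least 4.67 and 3.47, set against 3 counts over the group. In single libraries the Col10a1 ratio was at least 7.42 at P11 and 6.29 (3.80 to 11.6) at P18. The Ihh bound was 3.57 at P11 and 2.46 at P18. For Panx3 it was 4.08 and 0.14, so at P18 the depth could not show a Panx3 difference from tendon. Between mineralising-like cells and the chondrocyte-like cells of both clusters pooled, none of the 5 differed 4-fold (1.47% of 11797 genes were higher and 3.06% lower). Pth1r was higher in mineralising-like cells by 1.29 (1.21 to 1.37), and Col10a1 lower by a log2 ratio of -1.69 (-2.12 to -1.28). With each cell named by its highest marker score instead of its cluster, the Col10a1 ratio was -0.27, and over the other 5 settings it lay between -2.05 and -0.88. The pooled clusters were unlike each other. Over P11 and P18, Pth1r stood at 485 CPM in mineralising-like, 247 CPM in Matn1-high and 47.3 CPM in Matn1-low cells. Pthlh stood at 28.6, 18.0 and 208 CPM in the same groups. Between Matn1-high and Matn1-low cells, Ihh, Pth1r and Col10a1 were at least 4-fold higher (3.3% of 11078 genes) and Pthlh at least 4-fold lower (2.2%). Ihh and Col10a1, with 0 UMIs in Matn1-low cells, passed the filter only through the Matn1-high cells. Col10a1 was higher in Matn1-high cells by at least 5.45 and Ihh by at least 2.72, against 3 counts in the Matn1-low group. For Panx3 the bound was 1.52, and for P18 alone it was -0.05, so at P18 the depth could not show a difference.

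**Figure D3:**
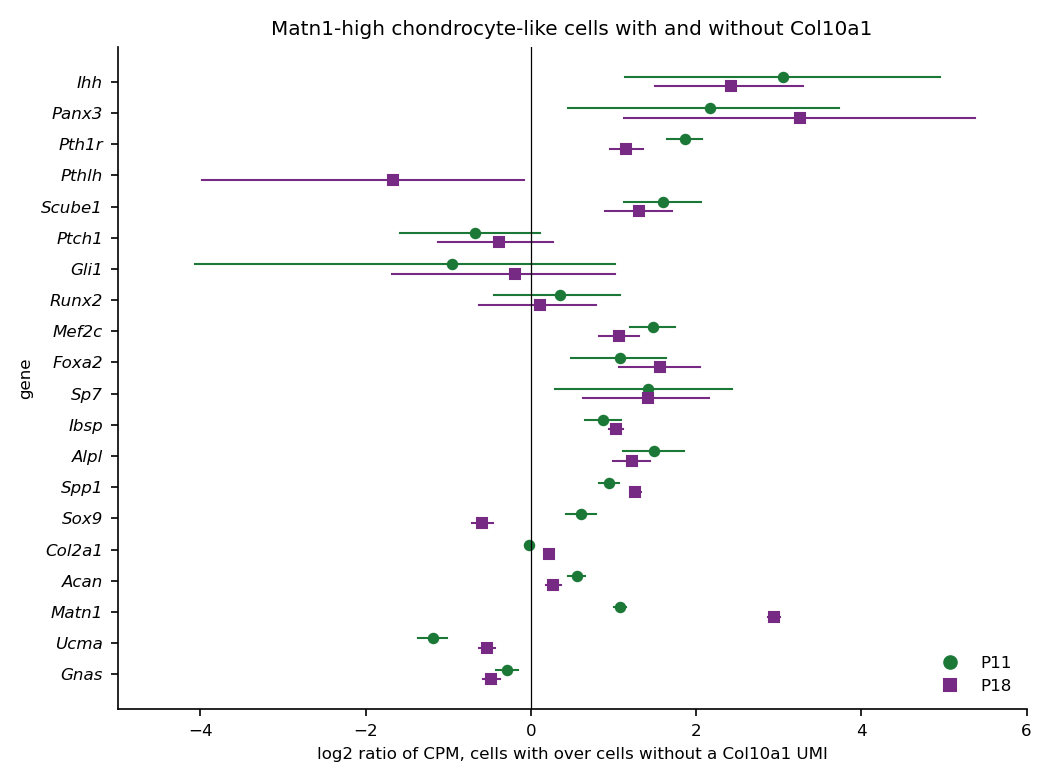
Log2 ratio of CPM between Matn1-high chondrocyte-like cells with and without a Col10a1 UMI, for the other 4 genes and pathway genes, in the P11 (circles) and P18 (squares) libraries, with exact 95% intervals. Ihh, Panx3 and Pth1r lie to the right in both libraries. A gene with 0 UMIs in either set is not drawn, as Pthlh at P11.

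Ihh and Col10a1 were found in the same cells more often than either was found in the rest. In the chondrocyte lineage, 18 of the 42 cells with an Ihh UMI had Col10a1 (42.9%, 27.7 to 59.0), against 40 of the 1330 others (3.01%, 2.16 to 4.07). It was 6 of 14 against 10 of 365 cells at P11 and 12 of 28 against 29 of 961 at P18, so both libraries gave the same order. Pth1r was in 40 of the 42 Ihh cells (95.2%) and in 66.2% of the others. Panx3 was in 3 of 42 (7.14%, 1.50 to 19.5) and in 1.50% of the others, with overlapping intervals. Within Matn1-high cells alone, Col10a1 was in 13 of 28 Ihh cells and in 4.94% of the others, and within mineralising-like cells in 5 of 14 and in 2.52%. Pthlh was in 3 of 14 Ihh cells at P11 (21.4%, 4.66 to 50.8) against 30.4% (25.7 to 35.4) of the others, and in 0 of 28 at P18 (0 to 12.3%) against 20.2% (17.7 to 22.9). These others hold the Matn1-low cells, rich in Pthlh and without Ihh. Within Matn1-high cells Pthlh was in 2 of 7 Ihh cells against 17.1% at P11 and in 0 of 21 against 8.31% at P18, and within mineralising-like cells in 1 of 7 against 17.6% and in 0 of 7 against 18.9%, with overlapping intervals in each case. Deeper cells show more genes, and the cells with Col10a1 were deeper, at a median of 29142 against 17204 UMIs in the Matn1-high cells at P11 and 19537 against 13911 at P18. With cells thinned to 5000 UMIs, 6 of 21 Ihh cells had Col10a1 (28.6%, 11.3 to 52.2) against 2.06% (1.35 to 3.002), and 16 of 21 had Pth1r (76.2%) against 50.9%. Thinned to 2000 UMIs, 7 Ihh cells were left and 0 of them had Col10a1, so the pair could not be compared at that depth.

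Cells with any of Ihh, Col10a1 or Panx3 were 22 of 165 Matn1-high cells at P11 and 45 of 430 at P18. At least 2 of the 3 genes were found together in 6 and 12 of these cells, and all 3 in 1 and 2. Mineralising-like cells with any of the 3 were 9 of 115 and 18 of 372. In Matn1-low cells there were 0 of 99 and 0 of 187, although 65 and 91 of these cells had Pthlh. Within the Matn1-high cluster, 3 of 29 Pthlh cells at P11 and 1 of 34 at P18 had any of the 3. Pthlh and Pth1r did not exclude each other: Pth1r was in 44.6% of Matn1-low cells with Pthlh and 32.4% of those without at P11, and in 41.8% and 27.1% at P18, with overlapping intervals in both libraries.

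Within the Matn1-high cluster, cells with a Col10a1 UMI were set against cells without, counting genes at least 2-fold apart in the same direction in both libraries. Ihh, Pth1r and Panx3 were higher and Pthlh lower under that count, in which 2.69% of 10262 genes were higher and 2.37% lower. Col10a1 itself made the split and is not counted. Ihh stood at 18.8 against 2.27 CPM at P11 and 31.0 against 5.78 CPM at P18, log2 ratios of 3.05 (1.14 to 4.95) and 2.42 (1.50 to 3.30). Pth1r stood at 829 against 228 CPM and 448 against 201 CPM, ratios of 1.86 (1.65 to 2.07) and 1.16 (0.96 to 1.35). Panx3 had 6 against 11 UMIs at P11 and 5 against 5 at P18, ratios of 2.17 (0.45 to 3.73) and 3.25 (1.13 to 5.37) per total count. Pthlh had 0 UMIs in the 11 Col10a1 cells at P11 against 69 in the other 154, and 3 against 91 at P18, a ratio of -1.67 (-3.98 to -0.08). The cells with Col10a1 thus carried more of the ligand Ihh and of the PTHrP receptor and less of the PTHrP gene.

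From a list of 16 hypertrophy genes and their regulators, 12 could be compared. In both libraries 4 of the 12 were higher in the Col10a1 cells, and none was lower. Mmp13, also on the list, had 0 UMIs in Matn1-high, Matn1-low and mineralising-like cells at P11 and P18. Mef2c and Foxa2, transcription factors that act in chondrocyte hypertrophy, had ratios of 1.48 and 1.08 at P11 and 1.07 and 1.57 at P18. Sp7, the osteoblast transcription factor osterix, had ratios of 1.42 and 1.42, and Alpl, the alkaline phosphatase of mineralising cells, 1.50 and 1.22. The median ratio of the 12 was 1.01 at P11 and 0.61 at P18, and over all genes 0.05 and -0.14. Of 4 genes compared from a list for Hedgehog ligand production and release, Scube1 was higher, by 1.60 and 1.31, and Scube3 was lower. On the receiving side, Smo, the Hedgehog signal transducer, and Cdon, a co-receptor, were lower, 2 of 10 genes compared, and no gene of that list was higher. Ptch1 had ratios of -0.68 (-1.58 to 0.11) and -0.39 (-1.12 to 0.27), and the Gli1 intervals also covered 0. Of the PTHrP signalling list, Zfp521 was lower, 1 of 10. For Smo, Cdon and Zfp521 the P11 interval reached past 0, and these 3 results rest on 4 to 9 UMIs in the Col10a1 cells. Matn1, a gene that defines the cluster, was higher in the Col10a1 cells too, at 5548 against 2627 CPM and 5165 against 673 CPM, and Msmp, a leading gene of the Matn1-low cluster, had 0 against 537 and 1 against 1246 UMIs. The part of such differences, and of the greater depth of the Col10a1 cells, in these results was not tested.

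The same count for cells with and without an Ihh UMI rests on 7 and 21 Ihh cells. Pth1r and Col10a1 were higher and Pthlh lower (2 UMIs in the Ihh cells at P11, with an interval of -4.24 to 0.75, and 0 at P18), where 6.25% of genes were higher and 1.79% lower. Pth1r had 765 against 262 CPM at P11 and 510 against 205 CPM at P18. Scube1 (ratios of 1.61 and 1.50) and Disp1 (1.85 and 1.66) were higher in Ihh cells, 2 of 4 genes compared from the ligand production list. Disp1 had 36 and 45 UMIs in all Matn1-high cells, so its ratios rest on few counts. Disp1 encodes the dispatched protein that releases lipid-bound Hedgehog from the producing cell. Gli2 and Gas1 were lower, 2 of 10 Hedgehog reception genes, and so was Zfp521, 1 of 10 PTHrP signalling genes. Sp7 and Alpl were higher, 2 of 12 hypertrophy genes. The part of depth in the ratios of Ihh cells was not tested. For the 11 and 8 cells with Panx3, Ihh, Pth1r and Col10a1 were higher, but so were 13.2% of all genes (2.47% were lower), and the Ihh intervals, -0.78 to 3.74 and -0.95 to 3.01, covered 0. In Matn1-low cells, those with Pthlh were set against those without, where 0.869% of 8054 genes were higher and 0.385% lower. Ptch1, the Hedgehog receptor and a target of the pathway, was higher in the Pthlh cells, at 49.6 against 16.9 CPM at P11 and 56.9 against 19.3 CPM at P18, ratios of 1.55 (0.21 to 3.25) and 1.56 (0.75 to 2.43). It was the 1 gene of the Hedgehog reception list that passed. Gli1, also a target, had ratios of 0.84 (-0.57 to 2.58) and 1.22 (0.01 to 2.55). In mineralising-like cells the Ptch1 ratios for Pthlh cells were 0.86 (0.34 to 1.36) and 0.46 (0.18 to 0.74), under 2-fold. Pth1r in these mineralising-like Pthlh cells had ratios of -0.08 (-0.36 to 0.19) and -0.42 (-0.61 to -0.24). Mineralising-like cells with Ihh, 7 in each library, had Pth1r ratios of 0.94 and 0.75 and Scube1 ratios of 0.95 and 1.31. Disp1 had 0 UMIs in these Ihh cells, against 9 and 18 in the other mineralising-like cells. Median UMIs of Matn1-low cells with and without Pthlh were 11926 and 7997.5 at P11 and 9065 and 9537.5 at P18, and the part of depth in the Ptch1 ratios was not tested.

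**Figure D4:**
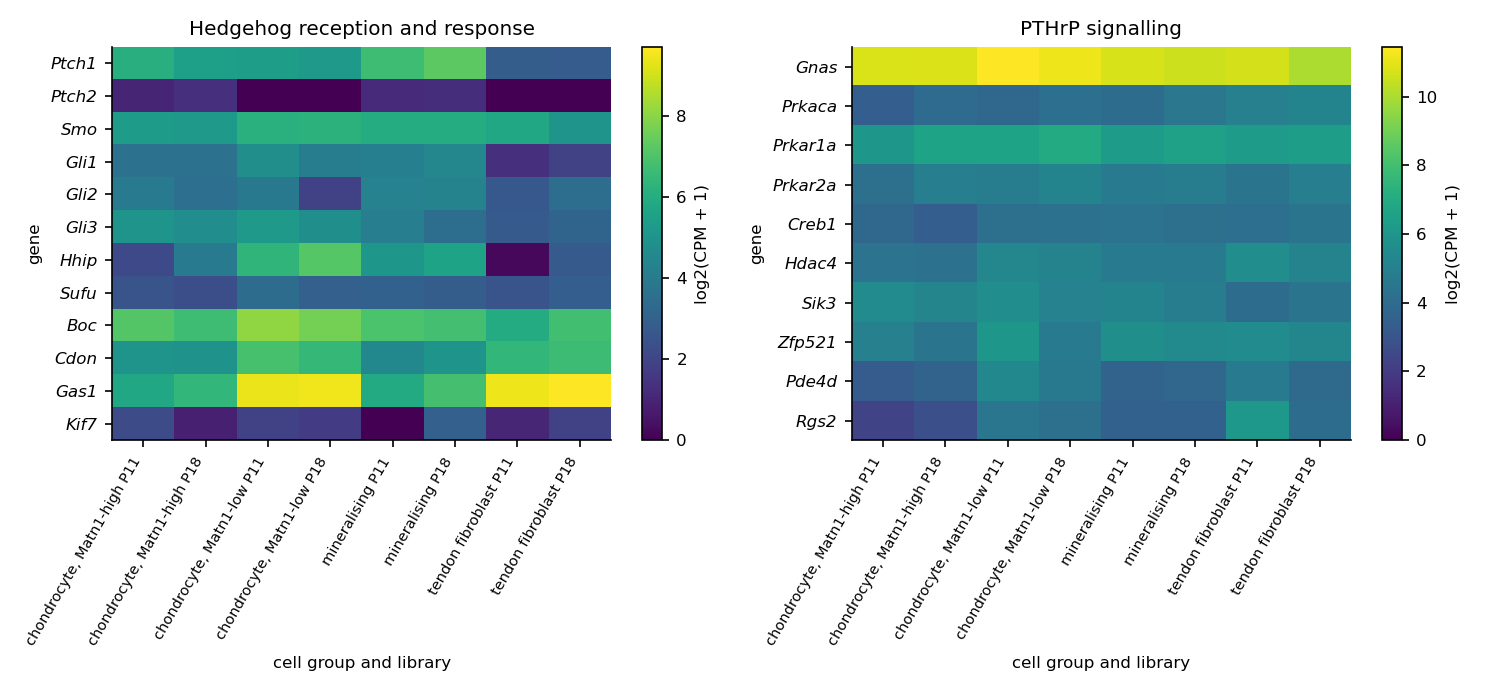
Level, log2(CPM + 1), of the genes for Hedgehog reception and response (left) and PTHrP signalling (right) in the P11 and P18 droplet libraries. Each column is a cell group in a library. Rows are to be read across columns, since levels of different genes are not compared. Ptch1 and Gli1 are lower in the tendon fibroblast-like columns than in the 3 cartilage groups.

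RNA of the Hedgehog reception list was compared between classes, for 11 of its 12 genes. These levels do not show whether a cell can receive the ligand. In tendon fibroblast-like cells Ptch1 stood at 6.25 CPM at P11 and 6.16 CPM at P18, against 67.2 and 44.0 CPM in Matn1-high, 41.0 and 37.2 CPM in Matn1-low and 103 and 154 CPM in mineralising-like cells. Gli1 had 1.48 and 2.69 CPM in the tendon class against 11.5 and 11.6, 26.8 and 15.8, and 17.2 and 21.7 CPM in the same 3 groups. Smo had 55.7 and 31.2 CPM in the tendon class against 38.9 and 37.0, 69.6 and 74.9, and 63.1 and 63.6 CPM. By the 2-fold rule in both libraries, Ptch1, Gli1, Gli3 and Hhip were higher and Cdon and Gas1 lower in Matn1-high than in tendon fibroblast-like cells, where 11.3% of 12371 genes were higher and 15.5% lower. In mineralising-like cells Ptch1, Gli1 and Hhip were higher and Cdon and Gas1 lower (7.73% and 7.12% of 11907 genes). In Matn1-low cells Ptch1, Gli1, Gli3 and Hhip were higher and none lower (9.79% and 7.69% of 11752 genes). Under the same rule Pthlh and Pth1r were higher than in tendon in both Matn1-high and mineralising-like cells, and in Matn1-low cells Pthlh was and Pth1r was not.

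Between both chondrocyte-like clusters, 3 of 11 Hedgehog reception genes were lower in Matn1-high cells in both libraries, where 4.18% of 11078 genes were higher and 7.22% lower. They were Hhip, a decoy receptor and target gene, and the co-receptors Cdon and Gas1. Hhip stood at 3.38 against 81.2 CPM at P11 and 14.6 against 141 CPM at P18. Gas1 stood at 55.8 against 675 CPM and 84.2 against 725 CPM. Scube1 was higher, at 67.9 CPM against 0 UMIs and 51.4 against 1.13 CPM. Of the PTHrP signalling genes, Pde4d, which breaks down cyclic AMP, and Rgs2, which dampens G protein signals, were lower in Matn1-high cells, 2 of 10, and none was higher. Of 12 hypertrophy genes, Runx2, Foxa2, Sp7, Ibsp, Alpl and Spp1 were higher and Dlx5 lower. Runx2, a transcription factor needed for hypertrophy, stood at 45.3 against 0.892 CPM and 32.1 against 5.07 CPM. Of the members, Pth1r and Col10a1 were higher and Pthlh lower. From Matn1-high to mineralising-like cells (6.54% of 11356 genes higher, 5.07% lower), Hhip was the 1 Hedgehog reception gene that was higher, none of 10 PTHrP signalling genes differed, and 6 of 14 hypertrophy genes were higher, namely Dlx5, Dlx6, Ibsp, Alpl, Spp1 and Phospho1. Col10a1 was the 1 member that was lower. Some list genes took part in the clustering or are class markers, so class differences in them are descriptions. They were 3 of the 12 Hedgehog reception genes, 1 of 7 ligand production genes, 1 of 10 PTHrP signalling genes and 7 of the 16 hypertrophy genes. Ibsp, Alpl, Spp1 and Sp7 were among the markers that named the mineralising-like cluster, and Phospho1 is on the same marker list. Immune markers summed to 33.5 CPM in Matn1-high cells at P11 and 918 CPM at P18, and their part in the P18 values was not tested.

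Genes whose levels followed each member over 19 sums of a class in a library, among 13685 genes with at least 100 UMIs, were ranked by Pearson correlation of log2(CPM + 1). The sums share libraries and differ in depth, and the correlations are descriptions. Closest to Ihh were Pcp4 (r = 0.94), Pde11a (0.94), Col10a1 (0.93), Smim6 (0.91) and Sp7 (0.89). Closest to Col10a1 were Il17b (0.95), Pcp4 (0.94), Pde11a (0.94), Ihh (0.93) and Slc2a5 (0.92), and closest to Panx3 were Col10a1 (0.95), Il17b (0.93), Cpne5 (0.91), Pde11a (0.90) and Slc2a5 (0.90). Panx3 had only 33 UMIs in these sums, in Matn1-high (17 and 10) and mineralising-like cells (2 and 4). Its correlations thus rest on few counts set against sums without any. Pthlh had another set, Arhgef28 (0.90), Trim46 (0.87), Prkd1 (0.84), Slc22a4 (0.82) and Papd7 (0.80). Pth1r had Gli2 (0.93), a Hedgehog transcription factor, Srpx2 (0.92), Srpx (0.92), Plod2 (0.92) and Slc8a3 (0.91). Among the members, Ihh had r = 0.70 with Pth1r and 0.04 with Pthlh.

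Between P11 and P18, none of the 5 genes changed 4-fold in the chondrocyte lineage (1.02% of 11797 genes were higher at P18 and 0.271% lower), and the median log2 ratio was -0.60 over the 5 and 0.05 over all genes. Pthlh stood at 75.6 CPM at P11 and 42.4 CPM at P18, a ratio of -0.83 (-1.03 to -0.64). Col10a1 stood at 35.2 and 23.3 CPM, a ratio of -0.60 (-0.87 to -0.33), which turned to 1.12 under a stricter cell filter (1000 genes or more and mitochondrial counts of 5% or less). Panx3 stood at 3.36 and 1.23 CPM, a ratio of -1.45 (-2.56 to -0.38). Pth1r, at 297 and 277 CPM (ratio -0.10, -0.18 to -0.01), and Ihh, at 4.78 and 5.09 CPM (0.09, -0.59 to 0.81), moved little in the lineage as a whole. Within it the Ihh ratio was 1.11 (0.18 to 2.15) in chondrocyte-like and -2.07 (-3.51 to -0.74) in mineralising-like cells. The Pth1r ratio turned to 0.10 under that stricter filter and to 0.026 with means of the cells' CPM. With 1 library at each age these values compare the libraries.

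**Figure D5:**
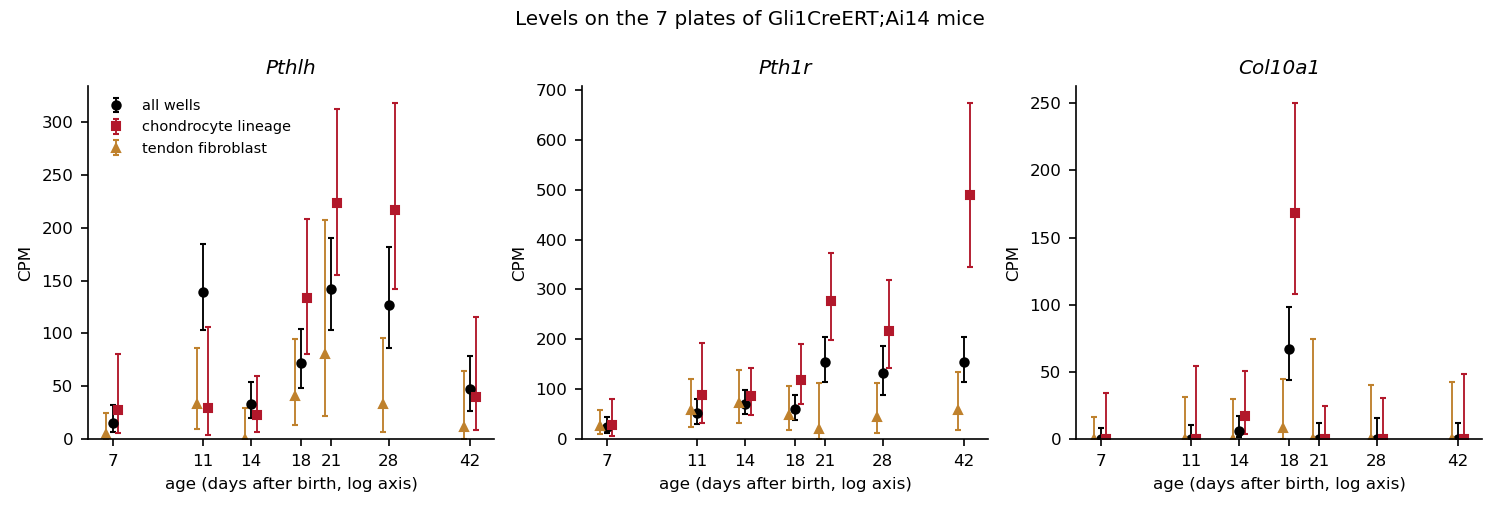
Level (CPM) of Pthlh, Pth1r and Col10a1 on the 7 plates of Gli1CreERT;Ai14 mice against age (log axis), for all wells, chondrocyte lineage wells and tendon fibroblast-like wells, with exact Poisson 95% intervals. Pth1r in chondrocyte lineage wells goes from 27.6 CPM at P7 to 489 CPM at P42.

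The plates of Gli1CreERT;Ai14 mice held 240498 to 507431 counts each, and 86 to 96 wells were kept per plate. Of 647 wells, 203 were of the chondrocyte lineage, 213 tendon fibroblast-like and 196 connective-tissue fibroblast-like. The lineage wells include 11 of a mineralising-like cluster with 10 mineralising markers, led by Bglap3, Bglap and Bglap2. Its leading genes also included Elane, from the immune marker list, and Prtn3. This Bglap-led cluster did not reach the 3 chondrocyte markers needed for that name, so it is in the lineage only as mineralising-like. It held 26 Pth1r counts in 8 wells. Ihh was not counted in any well, and over the 203 lineage wells a limit of 3 counts stands at 3.58 CPM. The droplet lineage had 4.97 CPM, and levels were not compared across the assays. Panx3 had 1 count, in a mineralising-like well of the Bglap-led cluster at P21, with 6 Col2a1 counts. Col10a1 had 3 counts in 2 wells at P14 and 26 in 6 wells at P18, and 0 at the other 5 ages. Of these 8 wells, 4 were chondrocyte-like, 1 tendon fibroblast-like and 1 unspecified mesenchymal. The other 2 were in a cluster that carried 9 chondrocyte and 3 mineralising markers and was led by Msmp, also the leading gene of the Matn1-low droplet cluster. The highest well held 14 counts and, with 281 Col2a1 counts, was chondrocyte-like. Pth1r was counted in 1 of the 8 wells and Pthlh in 1.

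Pthlh and Pth1r were counted on every plate. Pthlh had 7, 49, 17, 28, 44, 30 and 15 counts from P7 to P42, which are 15.6, 140, 33.5, 72.4, 142, 127 and 47.5 CPM. The plates at P11, P21 and P28 were high and the youngest was lowest, with no single direction. These 3 high plates and P42 were deposited in files that write counts with decimals, and P7, P14 and P18 in files of plain whole numbers. In lineage wells Pthlh stood at 27.6, 29.5, 23.2, 133, 224, 217 and 39.6 CPM, while at P11 most counts (43 of 49) came from connective-tissue fibroblast-like wells. Pth1r had 11, 18, 36, 23, 48, 31 and 49 counts, which are 24.4, 51.3, 71.0, 59.5, 155, 132 and 155 CPM. In lineage wells it stood at 27.6, 88.5, 86.9, 119, 276, 217 and 489 CPM, and in tendon fibroblast-like wells between 20.2 and 72.5 CPM. The oldest plate was the highest and the youngest the lowest in lineage wells, with P28 below P21. The lineage wells were of different clusters at different ages, which cannot be told apart from age here. The Msmp-led cluster gave 13 of 23 lineage wells at P7 and all 20 at P42. A cluster with the chondrocyte markers Col2a1, Hapln1 and Sox9 gave 33 of 42 at P21. The Bglap-led cluster gave 1 lineage well at P18, 6 at P21 and 4 at P28, so the lineage values at these ages include its wells. Over all wells, 22% of those with Pthlh had Pth1r (14.3 to 31.4) and 19.2% of the rest (16.0 to 22.8). The order was the reverse in lineage wells, 23.4% (12.3 to 38.0) against 38.5% (30.8 to 46.6), than in tendon fibroblast-like wells, 28.6% against 12.6%, and connective-tissue fibroblast-like wells, 18.9% against 9.43%. The intervals overlapped in each class, and lineage wells with Pthlh were shallower, at a median of 2948 against 3780 counts.

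A slope on log2 age was tested over all wells of the 7 plates with the quasi-likelihood test of edgeR. The slope of Pth1r was 0.95 for each doubling of age (SE 0.23), with an edgeR p of 0.00173 and a Benjamini-Hochberg adjusted p of 0.355. Pthlh had a slope of 0.33 (SE 0.45, edgeR adjusted p 0.875), which became -0.025 with the file layout as a term. Of the 2 members that passed the count filter, 0 were called, and 0% of 4390 genes were called in either direction, although edgeR gave 427 genes an unadjusted p under 0.05 and DESeq2 called 109 genes (25 rose, 84 fell). DESeq2 called Pth1r, at a slope of 0.96 with an adjusted p of 0.0342. Over the other settings and left-out plates the edgeR adjusted p for Pth1r ran from 0.0937 to 0.787. Of the pathway lists no gene was called by edgeR. In the hypertrophy list Mef2c, Ibsp and Alpl, 3 of 5 tested, had an unadjusted p under 0.05, in the Hedgehog reception list Boc, 1 of 3, and in the PTHrP signalling list none of 9. The share of lineage wells differed between plates, from 17 wells at P11 to 42 at P21, and its part in the Pth1r slope was not tested.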

How the data were processed

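The authors deposited raw counts, whole numbers for each gene in each droplet barcode (3′-end libraries) or each plate well. Totals differed between samples, so no scaling was found in them. The submitters' processing notes name the build mm10, and per the file headers the software behind the droplet files had version 3.1.0 (P11, P18) or 3.0.2 (P56). Aligner and annotation are not given in the sources used here, nor whether plate counts were collapsed to molecules.

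The 5 members, marker lists and pathway lists were chosen with earlier results of these data known. Cells needed 500 genes or more and mitochondrial counts of 10% or less. Scrublet scores (scanpy 1.11.5) were used to remove the top 0.8% per 1000 cells (70, 233 and 211 cells). Clusters came from 2000 variable genes without the members, 30 components, 15 neighbours and Leiden (leidenalg 0.10.2) at resolution 1. A name needed at least 3 markers at 2-fold in 10% of cells, and names rest on these rebuilt clusters. Ratios are of summed counts among genes with at least 20 UMIs, with no test, since each age is 1 library. A fold against 0 counts uses 3 counts over the group. Named genes are the members, list genes on which a result turns and the 5 closest genes by correlation. A few leading genes (Msmp, Matn1) were added after their values were seen.

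The plate trend used edgeR 4.0.16 (R 4.3.3) with TMM scaling on counts summed per plate, for genes with at least 10 counts in 4 plates, at an adjusted p of 0.05, with DESeq2 1.42.0 as an alternative. P-values measure only the spread between plates. On counts simulated for the plate age trend over 4390 genes, 200 with a slope of 1.5 up or down, edgeR recovered 179 (89.5%) and 10 of 189 calls were false. The simulated dispersion was set at 0.1 and not estimated from these plates, and the slope was steeper than the 0.95 of Pth1r. The recovery thus does not give the power for the slopes found.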

Additional observations from a re-analysis of the deposited data

Results flagged for a closer look

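In 4 comparisons the log2 ratios had opposite signs between droplet libraries or between classes. None of these differences was tested, since each age is 1 library. The Ihh log2 ratio of mineralising-like to chondrocyte-like cells was 1.70 at P11 (0.51 to 2.93) and -1.48 at P18 (-2.76 to -0.39). Put the other way, the P18 to P11 ratio of Ihh was 1.11 (0.18 to 2.15) in chondrocyte-like cells and -2.07 (-3.51 to -0.74) in mineralising-like cells, from 12, 50, 15 and 8 UMIs. At P18, 1 chondrocyte-like cell held 16 of the 50 UMIs, which the interval treats as independent, so 1.11 rests in part on that cell. For Pthlh the P18 to P11 ratio was -1.03 (-1.24 to -0.82) in chondrocyte-like cells and 0.55 (-0.02 to 1.15) in mineralising-like cells. For Pth1r it was -0.29 (-0.41 to -0.17) and 0.013 (-0.11 to 0.14). The mineralising-like intervals of Pthlh and Pth1r covered 0, so opposite moves were not shown for these genes.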

How the results depend on the processing

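Of 134 alternative values, 99 were counted as the same in size or call, 29 as moved, 5 as reversed and 1 as gaining a call. The 5 do not hold every change of sign. The Ihh P18 to P11 ratio in the lineage went from 0.09 to as low as -0.02 and was counted as the same. With a filter of 1000 genes or more and mitochondrial counts of 5% or less, the log2 ratios of chondrocyte-like to tendon fibroblast-like cells were 3.87 for Ihh, 2.01 for Pth1r and 2.23 for Panx3, those of mineralising-like to chondrocyte-like cells -1.29 for Ihh and -0.55 for Pthlh, and the P18 to P11 ratios turned to 0.10 for Pth1r and 1.12 for Col10a1. With 200 genes and 20%, the mineralising-like to chondrocyte-like ratio of Col10a1 was -1.23. With no doublet removal, Pth1r had 2.04 against tendon and 1.43 for mineralising-like to chondrocyte-like cells, and Col10a1 -0.88 for the latter. At resolution 0.5 that ratio was 1.40 for Pth1r and -0.94 for Col10a1. With each cell named by its highest marker score, it was 1.90 for Ihh, -1.72 for Pthlh, 1.42 for Pth1r, -0.27 for Col10a1 and 0.55 for Panx3, and the ratio to tendon was 3.99 for Pthlh and 2.37 for Pth1r. With means of the cells' CPM, the ratio to tendon was 4.24 for Ihh, 4.21 for Pthlh, 1.92 for Pth1r and 3.01 for Panx3, and Pth1r had 1.48 for mineralising-like to chondrocyte-like cells and 0.026 for P18 to P11. The cause of these shifts was not tested.

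The share of Ihh cells with Col10a1 was 42.9% at full depth against 0% thinned to 2000 UMIs, that with Pth1r 95.2% against 57.1%, and the share of Col10a1 cells with Ihh 31.0% at full depth and 18.8% thinned to 5000 against 0%. Thinning leaves fewer Ihh cells (7 of 42), so depth limits all values of Ihh and Panx3. The plate trend had 0 calls by edgeR, 109 by DESeq2 and 307 with no filter beyond 1 count. With 1 plate left out at a time it kept 0 calls. The Pth1r slope was 0.96 by DESeq2 and 0.79 to 1.16 with a plate left out. The Pthlh slope was -0.025 with the file layout as a term and -0.29 to 0.90 with a plate left out, the lowest without P7. No paired analysis was possible because each group has 1 library.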
